A study of Danio rerio with 27 samples.

Results

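Transcripts of 10 AP-1 genes were followed through 27 libraries of sorted zebrafish cells. They are 5 Fos-family genes (*fosaa*, *fosab*, *fosb*, *fosl1a* and *fosl2*), 4 Jun-family genes (*jun*, *junba*, *junbb* and *jund*) and the partner gene *atf3*. They were chosen by symbol, with no measured value in the rule, but with earlier results of these data known. All 10 were found among the 32520 genes of the deposited expression table. All 10 also passed the filter on low values that left 13465 genes to be tested.

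The study compared sorted cells, named metaphocyte progenitors, between adult fish mutant for *spic*, a gene for an Ets-family transcription factor, and their siblings. Whether that name holds for the mutant cells was not tested here, and their marker genes differed from those of siblings, as given below. Every library held 30 cells of fish carrying the Tg(spic:EGFP; mpeg1:DsRedx) transgenes, sorted as EGFP-positive and DsRedx-negative, and was amplified by Smart-seq2 with 23 PCR cycles. The groups were 7 libraries of mutant epidermis, 8 of mutant gill, 7 of sibling epidermis and 5 of sibling gill. The gate reads the promoter of *spic* itself through the EGFP reporter and leaves out cells in which the *mpeg1* promoter drives DsRedx. The mutant allele, the full genotype of the siblings, the sex and exact age of the fish and the time taken for dissociation stand in none of the sources used here. Nor is it stated that the libraries of 1 group came from different fish, and the p-values therefore reflect only how far these libraries scatter, which may in part be technical. Each library is a pool of cells, so fewer cells of a type and less RNA per cell cannot be told apart.

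AP-1 is a dimeric transcription factor assembled from basic leucine zipper proteins. Fos proteins bind DNA only as partners of Jun proteins, whereas Jun proteins can also pair among themselves or with proteins of the ATF family, and different pairs activate or repress different genes. Many of these genes are immediate-early genes, whose transcripts are made within minutes of growth factor signalling, wounding or stress through MAP kinase pathways, and in skin AP-1 proteins are known for their parts in keratinocyte differentiation and in repair. The gene *fosab* (ENSDARG00000031683) is a zebrafish counterpart of mammalian FOS and *fosaa* (ENSDARG00000040135) its paralogue. FosB (*fosb*, ENSDARG00000055751) is a further strong activator, while *fosl1a* (ENSDARG00000015355) and *fosl2* (ENSDARG00000040623) encode the Fra proteins, which lack the strong activation domain of FOS in mammals. The gene *jun* (ENSDARG00000043531) encodes the strongest activator of the Jun family, *junba* (ENSDARG00000074378) and *junbb* (ENSDARG00000104773) are paralogous counterparts of mammalian JUNB, which restrains c-Jun in several mammalian settings, and *jund* (ENSDARG00000067850) encodes the member that is least dependent on stimulation. ATF3 (*atf3*, ENSDARG00000007823) is a stress-induced partner of Jun proteins that can act as a repressor.

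Levels are given in TPM (a transcript's share of its library, scaled up to a fixed sum), which are also divided by gene length, so that levels of different genes can be compared, while the value of any gene depends on all others and the depth of a library is unknown. Libraries held 6469 to 8531 genes at 1 TPM or more in mutant epidermis, 6755 to 10633 in mutant gill, 7688 to 9097 in sibling epidermis and 8407 to 10655 in sibling gill. The targeted gene checked the labels: *spic* averaged 38.9 ± 40.5 TPM in mutant epidermis (SD, n = 7) and 638 ± 76.3 TPM in sibling epidermis (SD, n = 7), and 18.8 ± 17.7 TPM in mutant gill (SD, n = 8) and 293 ± 132 TPM in sibling gill (SD, n = 5), with no overlap in either tissue. Despite the gate on the *mpeg1* reporter, *mpeg1.1* transcripts averaged 210 ± 76.3 TPM in sibling epidermis and 1.29 ± 0.492 TPM in mutant epidermis (SD, n = 7 each). They averaged 103 ± 52.3 TPM in sibling gill (SD, n = 5) and 1.71 ± 1.11 TPM in mutant gill (SD, n = 8). Differences were tested with limma on log2(TPM + 1), in 1 fit of all libraries with p-values adjusted by Benjamini-Hochberg over the 13465 genes and a threshold of 0.05, and a gene is said to have risen or fallen only where it passed. Log2 differences are on that scale, which understates the change of low genes, and their standard errors (SE) come from that fit. For single members an exact two-sided permutation test of the group means of log2(TPM + 1) is given beside it, unadjusted.

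The summed Fos and Jun transcripts were abundant in mutant epidermis, mutant gill and sibling gill and lowest in sibling epidermis. The 9 Fos and Jun genes together held 11059 ± 3948 TPM in mutant epidermis (SD, n = 7), 14397 ± 6749 TPM in mutant gill (SD, n = 8), 11190 ± 5015 TPM in sibling gill (SD, n = 5) and 2802 ± 830 TPM in sibling epidermis (SD, n = 7). The sum in the lowest mutant epidermis library, 6187 TPM, was above the highest sibling epidermis library, 4093 TPM. By mean level over all 32520 genes, *fosab* ranked 18th in mutant epidermis, 30th in mutant gill, 73rd in sibling gill and 372nd in sibling epidermis. For *jun* the ranks were 21, 17, 21 and 118 in the same order of groups, and for *junbb* they were 29, 15, 34 and 160.

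**Figure D1:**
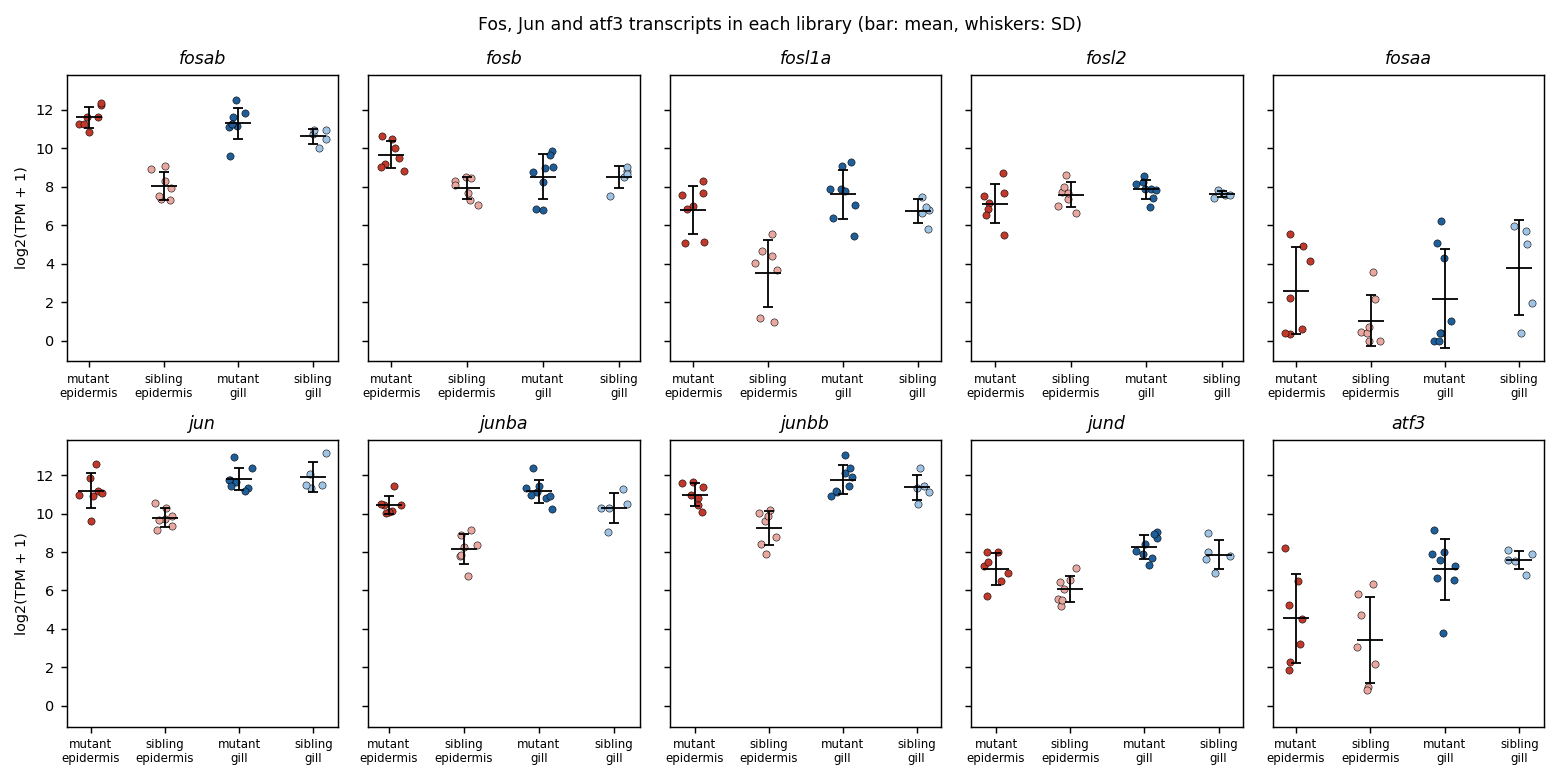
Level of each of the 10 genes as log2(TPM + 1) in every library, 1 panel per gene; points are libraries, bars are group means and whiskers are SD (7, 7, 8 and 5 libraries). For *fosab* every sibling epidermis library lies below every library of the other groups, from 160 to 537 TPM, whereas *fosl2* lies at like levels throughout and *fosaa* is near the floor in many libraries.

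In epidermis, 6 of the 10 members rose in mutants and 0 fell, while 12.8% of all tested genes passed in either direction, 4.13% of them higher and 8.69% lower. The members' median log2 difference was 1.65, against -0.27 over all tested genes. The risers were *fosab*, *fosl1a*, *junba*, *fosb*, *junbb* and *jun*, that is, both families. In 3 of the 10 members, *fosab*, *fosb* and *junba*, all mutant libraries exceeded all sibling libraries, and 2.03% of the tested genes were higher in this way. The split of all calls depends on the scaling: 32.2% of the genes called in epidermis were higher as deposited, 46.9% after quantile normalization and 83.3% after median centring. With them the median of all genes shifted to 0.01 and 0.91. Relative to that median the members' median was 1.92 as deposited and 1.94 after quantile normalization. Median centring shifts all genes of a library alike, so it leaves this value at 1.92 by construction.

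The largest difference belonged to *fosab*. It ranged from 1834 through a median of 3144 to 5251 TPM in mutant epidermis and from 160 through 240 to 537 TPM in sibling epidermis. The ranges lay far apart, the lowest mutant library being more than any sibling library. The means were 3304 ± 1273 TPM in mutants and 296 ± 156 TPM in siblings (SD, n = 7 each), a ratio of 11.1. The log2 difference was 3.55 (SE 0.34), with an adjusted p of 1.96e-09 by limma and an exact permutation p of 0.000583, the smallest that 7 against 7 libraries can give.

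Among the other Fos genes, *fosb* rose as well. It spanned 452 to 1584 TPM with a median of 730 TPM in mutant epidermis, and 133 to 363 TPM with a median of 275 TPM in sibling epidermis. The groups did not overlap, although the lowest mutant library was close to the highest sibling library. Its log2 difference was 1.75 (SE 0.44, adjusted p = 0.00609 by limma). This call ended when the number of detected genes entered the fit as a covariate (log2 difference 1.11, adjusted p = 0.108) and without the 3 libraries that held the fewest genes, which are mutant epidermis 2 and 4 and mutant gill 8 (1.39, adjusted p = 0.0563).

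The Fra gene *fosl1a* was low in siblings and moderate in mutants. It spanned 32.4 to 308 TPM with a median of 125 TPM in mutant epidermis, and 0.950 to 46.0 TPM with a median of 15.6 TPM in sibling epidermis. In 5 of 7 mutant libraries it exceeded every sibling library, and mutant epidermis 1 and 5 lay within the sibling range. The rise in *fosl1a* was 3.31 on the log2 scale (SE 0.71, adjusted p = 0.00123 by limma). Its relative *fosl2* averaged 170 ± 121 TPM in mutant epidermis and 207 ± 95.9 TPM in sibling epidermis (SD, n = 7 each) and did not pass (log2 difference -0.45, 95% interval -1.33 to 0.42, adjusted p = 0.572); the sign of this difference was positive, 0.73, after median centring. The paralogue *fosaa* averaged 13.8 ± 17.8 TPM and 2.24 ± 3.98 TPM in the same groups and did not pass (1.55, adjusted p = 0.428), with 2 sibling libraries listed at 0.

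All Jun genes stood higher in mutant epidermis by their means, and 3 of 4 passed. The JUNB counterpart *junba* spanned 1034 to 2762 TPM with a median of 1392 TPM in mutants, and 106 to 565 TPM with a median of 302 TPM in siblings. The ranges did not overlap. The log2 difference was 2.29 (SE 0.34, adjusted p = 1.02e-05 by limma), and without the highest mutant library, mutant epidermis 2, it was 2.12. Its paralogue *junbb* spanned 1075 to 3134 TPM with a median of 2029 TPM in mutants, and 237 to 1159 TPM with a median of 774 TPM in siblings. In mutants, 6 of 7 libraries were above every sibling library, and mutant epidermis 5 was within the sibling range. The log2 difference of *junbb* was 1.74 (SE 0.35, adjusted p = 0.000647 by limma).

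The most abundant Jun gene in mutant epidermis, *jun*, spanned 793 to 6164 TPM with a median of 2160 TPM there, and 570 to 1483 TPM with a median of 828 TPM in sibling epidermis. Mutant epidermis 5 again lay within the sibling range, and the other 6 mutant libraries lay above it. The log2 difference was 1.39 (SE 0.33, adjusted p = 0.00386 by limma). The least abundant, *jund*, averaged 158 ± 79.8 TPM in mutants and 73.5 ± 37.4 TPM in siblings (SD, n = 7 each). Its log2 difference of 1.06 (95% interval 0.13 to 1.99) did not pass over all genes (adjusted p = 0.135 by limma; exact permutation p = 0.0262), but passed after median centring (2.24, adjusted p = 0.00469).

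The stress-induced partner *atf3* varied widely between libraries of a group. It ranged from 2.71 through a median of 22.1 to 299 TPM in mutant epidermis and from 0.752 through 7.41 to 81.2 TPM in sibling epidermis. The mutant mean of 65.9 TPM became 27.02 TPM without mutant epidermis 5, against a sibling mean of 25.2 TPM. The log2 difference was 1.12 (SE 0.93, adjusted p = 0.501 by limma).

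**Figure D2:**
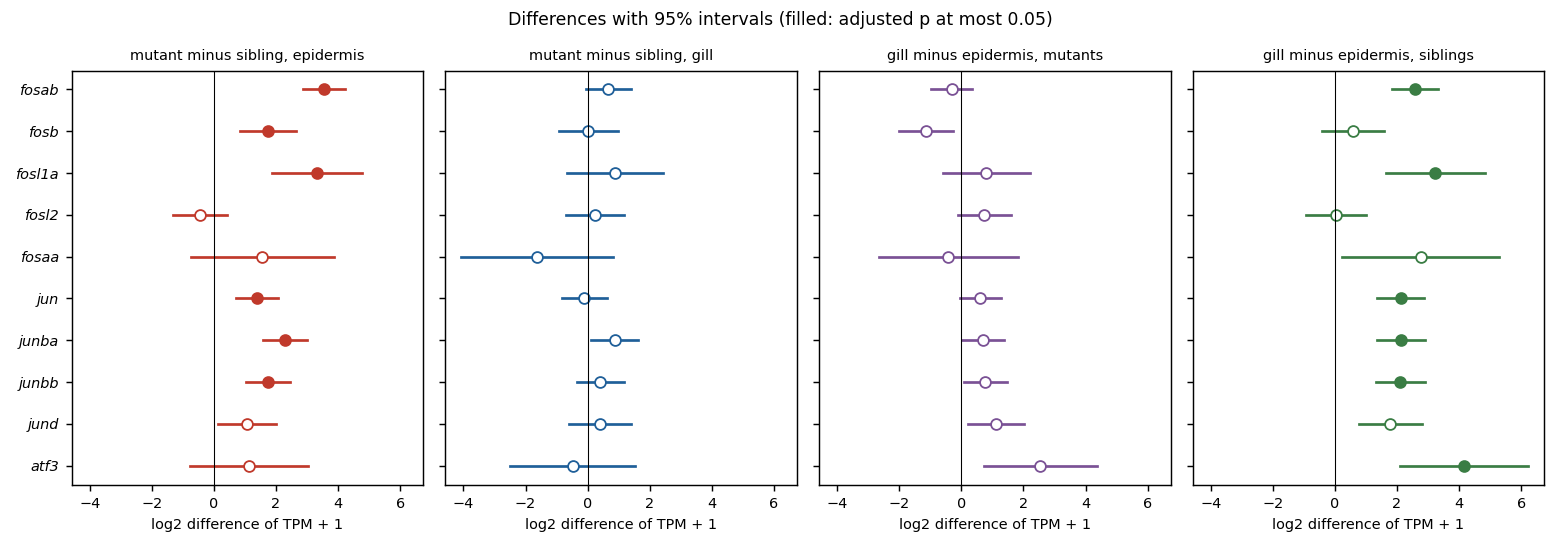
Log2 difference of TPM + 1 for each member between mutants and siblings in each tissue and between the tissues in mutants and in siblings. Intervals are 95% intervals from limma, and filled points have an adjusted p of 0.05 or less. In the epidermal comparison 6 points are filled, all to the right of 0, and in the gill comparison none is filled. Between the tissues 6 points are filled in siblings, all to the right of 0, and none in mutants.

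Genes that mark other cell types also differed between the epidermal groups. The 18 listed neuroendocrine and sensory genes that were found summed to 609 to 8539 TPM in mutant epidermis and 160 to 500 TPM in sibling epidermis. Of the 14 tested 11 rose, and *calb2b* was at 0 in all of these libraries. The 609 TPM was that of mutant epidermis 7, and the next lowest mutant library, mutant epidermis 1, had 4079 TPM. Mutant epidermis 7 also had the highest myeloid sum of its group, 6752 TPM. The 12 superficial keratinocyte genes summed to 1162 to 11726 TPM in mutants and 721 to 1433 TPM in siblings (2 of 6 tested rose and 1 fell; *krt17* and *krtt1c19e* at 0), and the 9 basal keratinocyte genes to 399 to 2379 TPM and 28.0 to 461 TPM (1 of 4 tested rose; *krt94* at 0). The 20 myeloid genes summed to 1206 to 6752 TPM in mutants and 11819 to 16984 TPM in siblings, and 10 of the 13 tested fell, with *csf1ra*, *csf1rb*, *ptprc* and *tyrobp* at 0 in both groups. T and NK cell genes summed to 27.3 to 105 TPM in mutants and 488 to 1827 TPM in siblings (2 of 4 tested fell; *zap70*, *cd8a*, *cd4-1* and *il2rb* at 0 in both groups), ionocyte genes to 284 to 2245 TPM and 183 to 323 TPM (1 of 11 rose), and mucous cell genes to 32.2 to 1387 TPM and 14.9 to 107 TPM (1 of 4 rose). The part of these other genes in the AP-1 result was not tested.

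In gill, none of the 10 members passed between mutants and siblings, where 6.21% of the tested genes did (2.34% higher and 3.87% lower). At an unadjusted p under 0.05 there was 1 member, *junba*, both by limma and by the exact permutation test. The share of all tested genes at that level was not counted, in this or later comparisons. Such counts are therefore not read as a result about the members. The members' median log2 difference was 0.32, against -0.03 over all tested genes, and the groups separated fully in 0 of 10 members and in 3.54% of the tested genes. Median centring moved the median of all genes to 0.83 and called *fosab*, *junba* and *junbb* as higher (3 of 10). In that setting 1303 of all tested genes were called, 1079 of them higher. Quantile normalization called *junba* alone among the members (adjusted p = 0.0449 by limma). Relative to the median of all genes, the members' median was 0.35 as deposited and 0.06 after quantile normalization. Median centring leaves it at 0.35 by construction.

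The gill values of *fosab* spanned 784 to 5745 TPM with a median of 2432 TPM in mutants, and were 1680, 1424, 1981, 1039 and 2006 TPM in siblings. In mutants, 7 of 8 libraries stood above all siblings and mutant gill 5 below all of them. The log2 difference of 0.66 had a 95% interval of -0.06 to 1.39 (adjusted p = 0.317 by limma). For *junba* the mutants spanned 1202 to 5201 TPM with a median of 2111 TPM, and the siblings had 1269, 1263, 1444, 525.7 and 2451 TPM. Only 3 of 8 mutant libraries were above every sibling. The log2 difference was 0.87 (95% interval 0.12 to 1.61, adjusted p = 0.177 by limma, exact permutation p = 0.0466).

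The other Jun genes were high in both gill groups. For *jun*, mutants spanned 2322 to 7907 TPM with a median of 3295 TPM, and siblings had 2570, 2858, 2820, 4291 and 9118 TPM. The sibling mean was raised by sibling gill 5, and the small difference (-0.11, 95% interval -0.83 to 0.62) turned to 0.21 without that library, 0.06 after quantile normalization and 0.75 after median centring. For *junbb*, mutants spanned 1900 to 8566 TPM with a median of 3330 TPM, and siblings had 2235, 1458, 2793, 2578 and 5254 TPM. The groups overlapped widely, with a log2 difference of 0.41 (95% interval -0.36 to 1.17).

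The remaining gill differences did not pass and their intervals were wide. *fosb* averaged 465.8 ± 299 TPM in mutants and 382 ± 128 TPM in siblings (log2 difference 0.02), *fosl1a* 263 ± 208 TPM and 112 ± 44.1 TPM (0.87), and *fosl2* 243 ± 77.6 TPM and 196 ± 19.4 TPM (0.25; SD, n = 8 and 5). *jund* averaged 329 ± 137 TPM and 259 ± 151 TPM (0.40), *atf3* 199 ± 164 TPM and 199.6 ± 60.8 TPM (-0.48), and *fosaa* 15.9 ± 26.3 TPM and 29.3 ± 27.6 TPM (-1.62). The sign was unstable where the difference was small: *fosb* lay between -0.22 and 0.27 when single libraries were left out, and *atf3* was 0.37 after median centring. Neuroendocrine and sensory genes stood at 3017 to 6987 TPM in mutant gill and 682 to 1080 TPM in sibling gill (9 of 14 tested rose), and myeloid genes at 4081 to 10175 TPM and 6510 to 10599 TPM (8 of 13 fell). Superficial keratinocyte genes summed to 479 to 1397 TPM in mutant gill and 102 to 326 TPM in sibling gill (1 of 6 tested rose), ionocyte genes to 406 to 13306 TPM and 239 to 826 TPM (2 of 11 rose), and T and NK cell genes to 8.09 to 114 TPM and 532 to 4152 TPM (2 of 4 fell; *zap70* and *il2rb* at 0 in both groups). The high ionocyte sums were those of mutant gill 3 (13306 TPM) and mutant gill 2 (3245 TPM). All other mutant gill libraries lay within the sibling range, and the medians were 501 TPM in mutants and 464 TPM in siblings. The part of all these marker genes in the gill values was not tested.

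Whether the mutant effect itself differed between the tissues was tested as the effect in gill minus the effect in epidermis. Of the 10 members *fosab* passed, with a difference of -2.88 (SE 0.49, 95% interval -3.88 to -1.88, adjusted p = 0.00819 by limma). In all, 8 of the 13465 tested genes passed in this contrast, 0.0594% (0.0371% higher and 0.0223% lower). The call held in all 27 fits that left out a single library (adjusted p between 0.00182 and 0.0353) and ended after median centring (-3.21, adjusted p = 0.0719). The estimate was negative for 9 of 10 members, with a median of -1.55 against 0.27 over all genes. By limma 6 members had an unadjusted p under 0.05, a level at which the share of all genes was not counted. For *jun* it was -1.50 (adjusted p = 0.235), for *junba* -1.42 (0.286), for *junbb* -1.33 (0.346), for *fosb* -1.72 (0.326) and for *fosl1a* -2.44 (0.415), so a difference between the tissues was not shown for these genes. The single positive estimate was that of *fosl2*, 0.70 (adjusted p = 0.779).

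Within siblings, gill cells held more AP-1 transcript than epidermal cells. This comparison shares the sibling epidermis libraries with the epidermal comparison above, so the values stand side by side and are not independent of it. In gill, 6 of 10 members were called higher and 0 lower, where 0.958% of the tested genes passed (0.631% higher and 0.327% lower). The median log2 difference of the members was 2.12, against 0.12 over all genes. Full separation was found for 5 members, *fosab*, *fosl1a*, *jun*, *junbb* and *atf3*, and for 1.17% of the tested genes in this direction.

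In those sibling cells *fosab* averaged 1626 ± 406 TPM in gill (n = 5) and 296 ± 156 TPM in epidermis (SD, n = 7; log2 difference 2.57, SE 0.37, adjusted p = 0.000115 by limma). *jun* averaged 4331 ± 2760 TPM and 929 ± 326 TPM (2.11, adjusted p = 0.00159), *junba* 1390 ± 690 TPM and 319 ± 157 TPM (2.13, adjusted p = 0.00176), and *junbb* 2864 ± 1429 TPM and 701 ± 362 TPM (2.11, adjusted p = 0.00253). For *junba* the lowest gill library, sibling gill 4 with 525.7 TPM, fell within the epidermal range, and after median centring its call ended (adjusted p = 0.0787). For these 4 genes the sibling gill means were several fold above the sibling epidermis means. For *jun* the difference was 1.80 without sibling gill 5, still past the threshold (adjusted p = 0.0125). Marker genes differed between these tissues as well. Superficial keratinocyte genes summed to 102 to 326 TPM in sibling gill and 721 to 1433 TPM in sibling epidermis (1 of 6 tested was lower in gill), and basal keratinocyte genes to 4.78 to 68.9 TPM and 28.0 to 461 TPM (1 of 4 lower). Neuroendocrine and sensory genes summed to 682 to 1080 TPM in sibling gill and 160 to 500 TPM in sibling epidermis (2 of 14 higher), and myeloid genes to 6510 to 10599 TPM and 11819 to 16984 TPM (0 of 13 called). Their part in the AP-1 values was not tested.

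The calls of *fosl1a* and *atf3* between sibling tissues were less firm. *fosl1a* had 176, 110, 121, 54.1 and 98.4 TPM in sibling gill against 0.950 to 46.0 TPM in sibling epidermis (log2 difference 3.23, adjusted p = 0.0290 by limma). *atf3* had 275, 191, 234, 112 and 187 TPM in sibling gill against 0.752 to 81.2 TPM in sibling epidermis (4.16, adjusted p = 0.0337 by limma). Neither gene overlapped between the tissues. The *fosl1a* call ended in 6 of 12 fits that left out a single library (without sibling epidermis 3 or 6 or sibling gill 1, 2, 3 or 5; highest adjusted p = 0.0937), and the *atf3* call in 9 of 12 (without sibling epidermis 3, 4, 6 or 7 or any of the sibling gill libraries; highest adjusted p = 0.0932). Both ended with the replicate number as a block (adjusted p = 0.0554 for *fosl1a* and 0.0504 for *atf3*). *fosb*, *fosl2*, *fosaa* and *jund* did not pass, with log2 differences of 0.58, 0.04, 2.76 and 1.78 and adjusted p-values of 0.0924 or more. With weights on the libraries *jund* passed as higher in gill (1.70, adjusted p = 0.028 by limma).

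Within mutants, none of the 10 members passed between gill and epidermis, where 4.23% of the tested genes did (3.4% higher and 0.824% lower), and the groups separated fully in 0 members and in 1.05% of the tested genes. At an unadjusted p under 0.05, where the share of all genes was not counted, there were 5 members by limma and 5 by the exact permutation test. They were *atf3* (2.55, adjusted p = 0.103), *fosb* (-1.14, adjusted p = 0.130), *jund* (1.12), *junba* (0.71) and *junbb* (0.78). *atf3* passed without mutant epidermis 5 (3.16, adjusted p = 0.0394) and without mutant gill 3 (3.02, adjusted p = 0.0436), and *fosb* passed as lower in gill after quantile normalization (-1.58, adjusted p = 0.0306). *fosab* averaged 2838 ± 1438 TPM in mutant gill (n = 8) and 3304 ± 1273 TPM in mutant epidermis (SD, n = 7), a log2 difference of -0.31.

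The make-up of the family also varied between the groups, which is described here without a test. The 5 Fos genes summed to 4534 ± 1847 TPM in mutant epidermis, 3826 ± 1908 TPM in mutant gill, 2346 ± 539 TPM in sibling gill and 780 ± 216 TPM in sibling epidermis. The 4 Jun genes summed to 6526 ± 2367, 10570 ± 5174, 8845 ± 4801 and 2022 ± 635 TPM in the same order of groups. Fos transcripts were 41.1 ± 7.34% of the Fos and Jun total in mutant epidermis, 26.6 ± 8.47% in mutant gill, 22.8 ± 7.06% in sibling gill and 28.2 ± 3.76% in sibling epidermis. In mutant epidermis the share ran from 32.3% to 52.3% and in sibling epidermis from 22.1% to 34.0%. The ranges overlapped, with mutant epidermis 1 (32.7%) and 7 (32.3%) below sibling epidermis 6 (34.0%).

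Within the Fos family *fosab* held 73.3% of the summed TPM in mutant epidermis, 74.2% in mutant gill and 69.1% in sibling gill, but 36.4% in sibling epidermis. The Fra gene *fosl2* took 3.78%, 7.45%, 8.82% and 26.9% in the same order. In TPM, *fosl2* itself spanned 43.4 to 416 TPM in mutant epidermis and 98.3 to 390 TPM in sibling epidermis, and the ranges overlapped. In sibling epidermis *fosab*, *fosb* and *fosl2* lay within their spread of each other (296 ± 156, 257 ± 94.3 and 207 ± 95.9 TPM), whereas in mutant epidermis their order was *fosab*, *fosb*, *fosl2* at 3304, 901 and 170 TPM.

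**Figure D3:**
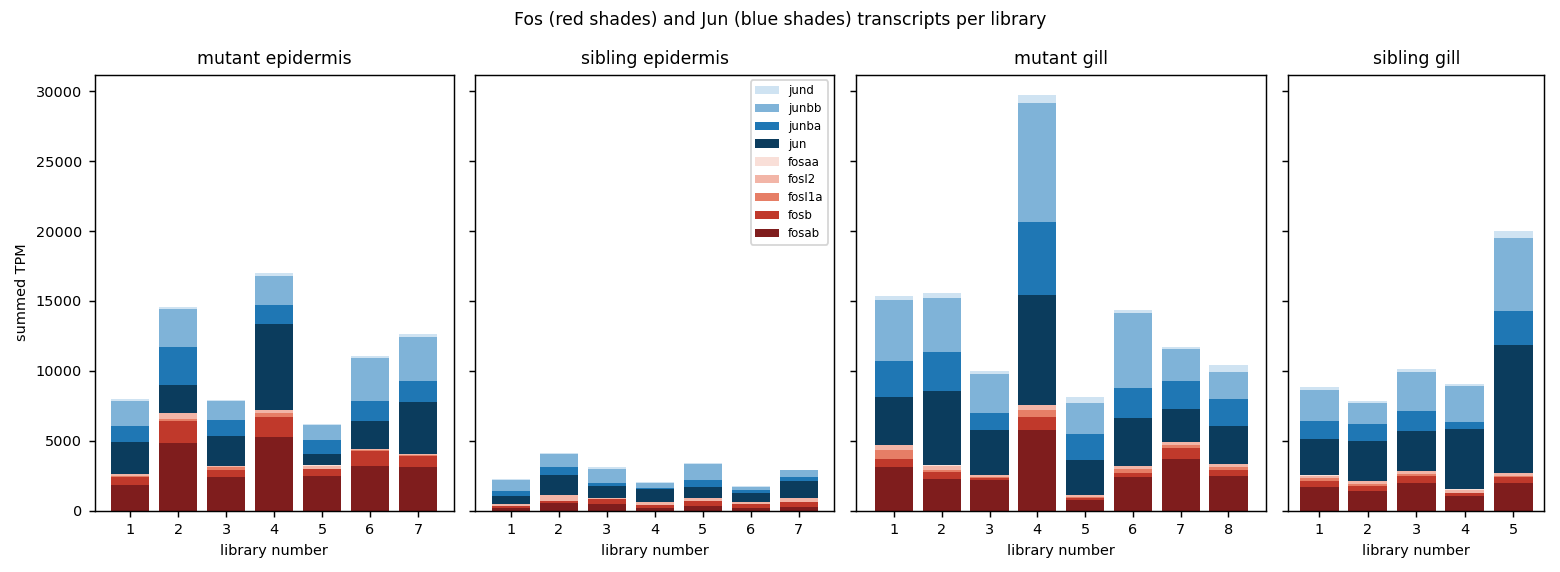
Summed TPM of the Fos genes (red shades) and Jun genes (blue shades) in each library, stacked by gene, with 1 panel per group. All 7 sibling epidermis columns are below every column of mutant epidermis, and mutant gill 4 and sibling gill 5 are the tallest of their groups, with Jun sums of 22198 and 17336 TPM.

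Across libraries, after the group means had been removed, members tended to vary together in part. Of the 45 pairs 31 correlated positively, with a median Pearson r of 0.25 over the 27 libraries and a range of -0.37 to 0.67. The highest values were those of *fosab* with *fosb* (r = 0.67), *junba* with *junbb* (0.64) and *fosab* with *junba* (0.61), and the lowest was that of *fosaa* with *fosl1a* (-0.37). All points share the TPM scaling of their library, and how reads that fit both paralogues were counted is stated in none of the sources used here, so the values of *junba* and *junbb*, and of *fosaa* and *fosab*, are uncertain as far as reads could be shared. Of 9800 named genes compared, the one most like *jun*, the member with the highest mean log2 level, was *ier5*, itself an immediate-early gene, with r = 0.84 and Spearman's rho of 0.80 over the 27 libraries. It was followed by *zwilch* (r = 0.71, rho 0.58), *upf3a* (0.69, 0.47), *elf3* (0.68, 0.60) and *parvaa* (0.66, 0.44). Of these, *zwilch*, *upf3a* and *parvaa* were near the floor in many libraries. The median of *zwilch* was 0.33 TPM in mutant epidermis, and those of *upf3a* and *parvaa* were 0 TPM in sibling epidermis. Both *jun* and *ier5* were highest of their group in mutant epidermis 4, mutant gill 4 and sibling gill 5. There *ier5* had 1439, 890 and 1635 TPM. In sibling epidermis their highest libraries differed. The correlations were not computed without these libraries.

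**Figure D4:**
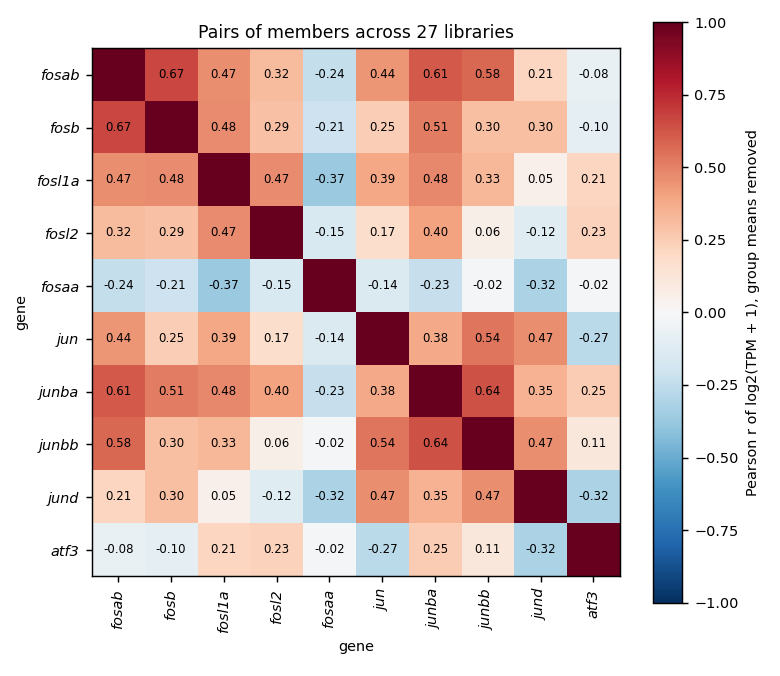
Pearson r of log2(TPM + 1) between every pair of members over 27 libraries, after subtraction of group means; colour gives r. The pairs of *fosab* with *fosb* (0.67) and of *junba* with *junbb* (0.64) are the strongest, and *fosaa* and *atf3* are weakly or negatively related to most members.

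Genes that act around AP-1 were followed in 5 lists, also chosen with earlier results of these data known. Their counts as deposited are read against the shares of all genes given above. After median centring no such share is given for epidermis, so those counts show only the split. Near the 6.21% of all genes in gill were the immediate-early list (2 of 30 called) and the upstream list (3 of 44). Near the 12.8% in epidermis was the list of other basic leucine zipper genes (5 of 29). These counts are not read as results about the lists. Median centring, which shifts all genes upward in mutants, changed the split of calls within the lists, as given beside each. Of the other immediate-early genes, those induced with AP-1 but outside its families (30 tested of 42 listed), 6 rose in mutant epidermis and 1 fell (15 higher and 0 lower after median centring), with a median log2 difference of 0.83 against -0.27 over all genes. The EGR gene *egr4* averaged 839.5 ± 764 TPM in mutant epidermis and 22.6 ± 28.7 TPM in sibling epidermis (log2 difference 4.79, adjusted p = 0.000121 by limma), and *egr1* 152 ± 126 TPM and 12.9 ± 18.6 TPM (3.55, adjusted p = 0.00295). *egr2a* (4.14, adjusted p = 0.000626) and *ier5l* (4.49, adjusted p = 0.000563) rose too. In gill, where the list's median was 0.06 against -0.03 over all genes, 1 of these 30 rose, *egr4* (1572 ± 659 TPM in mutants and 94.0 ± 75.4 TPM in siblings, 4.58, adjusted p = 0.00115), and 1 fell, *klf4* (-3.36, adjusted p = 0.0439), a call that ended in 10 of 13 fits without a single library.

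A further list held genes around feedback on receptor and MAP kinase signalling, not all of them inhibitors (32 tested of 39 listed). Of these, 7 rose and 1 fell in mutant epidermis (12 and 0 after median centring, median 0.09 as deposited). In mutant gill 4 rose and 1 fell (8 and 0 after median centring, median 0.29 as deposited). The cytokine signalling inhibitor *socs3a* averaged 1280 ± 775 TPM in mutant epidermis and 45.3 ± 23.9 TPM in sibling epidermis (log2 difference 4.63, adjusted p = 1.36e-08 by limma). It was 999.96 ± 589 TPM in mutant gill and 406 ± 192 TPM in sibling gill (1.13, adjusted p = 0.220). The difference of its mutant effects, gill minus epidermis, was -3.50 (adjusted p = 0.0408 by limma), a call that ended in 14 of 27 fits without a single library (highest adjusted p = 0.0955, without sibling gill 5) and in 5 of 11 other settings, among them median centring (adjusted p = 0.0719), the replicate block (0.0564) and the count of detected genes as a covariate (0.0628). *rasd1*, a Ras-related gene, rose in epidermis (6.10, adjusted p = 6.03e-07) and in gill (5.76, adjusted p = 1.17e-05), as did the antiproliferative gene *btg1* (2.36, adjusted p = 3.81e-06; 1.58, adjusted p = 0.00435) and *socs3b* (3.77, adjusted p = 0.000918; 3.01, adjusted p = 0.0255). *spry2*, an inhibitor of growth factor signalling, also rose in epidermis (2.29, adjusted p = 0.00147) and in gill (2.54, adjusted p = 0.00210). The gill call of *socs3b* ended without sibling gill 1 (log2 difference 2.46) and without sibling gill 3 (3.02, adjusted p = 0.0529), and without sibling gill 3 the gill count of this list was 3.

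Of the kinases and transcription factors upstream of AP-1 (44 tested of 52 listed), 9 fell and 1 rose in mutant epidermis (median -1.03), but 5 fell and 5 rose after median centring. Those with the smallest p were *mrtfab*, an SRF cofactor (-4.50, adjusted p = 0.000320), the Ets factor *elk3* (-3.65, adjusted p = 0.000869), the p38 kinase *mapk14a* (-4.41, adjusted p = 0.00107) and the ribosomal S6 kinase *rps6ka1* (-3.96, adjusted p = 0.00128). In gill 2 fell and 1 rose (median -0.15; 1 fell and 2 rose after median centring): *rps6ka1* (-4.48, adjusted p = 0.00148), *elk3* (-2.72, adjusted p = 0.0370) and the kinase *map3k1* (3.095, adjusted p = 0.0207). *map3k1* was also the gene of this list that rose in epidermis (2.82, adjusted p = 0.0140), a call that ended with a pseudocount of 10 (adjusted p = 0.0924). The *elk3* call ended in 7 of 13 fits without a single library, and the gill call of *map3k1* without sibling gill 3 (adjusted p = 0.0981), where the count was 1.

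Of the other basic leucine zipper genes (29 tested of 44 listed), 2 were higher and 3 lower in mutant epidermis (8 and 3 after median centring; 8 called in all without mutant epidermis 4; median -0.01 as deposited). In gill 0 were higher and 1 lower (4 and 0 after median centring; median -0.42). In epidermis the oxidative stress factor *nfe2l2a* (-4.14, adjusted p = 1.43e-05), *bach1b* (-5.09, adjusted p = 6.78e-05) and the small Maf gene *mafgb* (-3.91, adjusted p = 0.00656) fell, and *atf4b*, of the amino acid and endoplasmic reticulum stress response, rose (1.14, adjusted p = 0.00399). *mafgb* fell in gill as well (-3.39, adjusted p = 0.0499), which ended in 10 of 13 fits without a single library. Of the genes known in mammals as AP-1 targets (15 tested of 32 listed), 1 rose and 3 fell in epidermis (2 and 1 after median centring; median -1.19 as deposited), and 0 rose and 4 fell in gill (1 and 2; median -1.35). Those counts include *tnc*, *il1b*, *tnfa* and *hmox1a*, which passed the filter only through the genotype where they were high. The counts and medians are therefore not read as a result about AP-1 targets. The matrix gene *tnc* rose in epidermis (16.2 ± 9.44 TPM in mutants and 0.158 ± 0.277 TPM in siblings, adjusted p = 0.00118 by limma). It was under 1 TPM in every sibling library, so only mutant libraries brought it past the filter. The matrix metalloproteinase gene *mmp9* fell in epidermis (1.35 ± 0.483 TPM in mutants and 243 ± 140 TPM in siblings, adjusted p = 1.99e-08) and in gill (2.20 ± 1.997 TPM and 40.7 ± 28.1 TPM, adjusted p = 0.00277).

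In gill the inflammatory cytokine genes *il1b* (0.289 ± 0.2997 TPM in mutants and 35.7 ± 14.4 TPM in siblings, log2 difference -4.76, adjusted p = 0.000131 by limma) and *tnfa* (-3.105, adjusted p = 0.0101) and the heme oxygenase gene *hmox1a* (-3.08, adjusted p = 0.00541) fell. In every mutant library these genes were under 1 TPM, so only sibling libraries brought them past the filter. *tnfa* averaged 0.195 ± 0.362 TPM in mutant gill and 22.0 ± 25.3 TPM in sibling gill (SD, n = 8 and 5). *hmox1a* averaged 0.0972 ± 0.275 TPM and 23.3 ± 35.4 TPM there, the latter 7.78 TPM without the highest library. The *tnfa* call ended without sibling gill 3 (adjusted p = 0.0581) and in 2 of 11 other settings. The *hmox1a* call ended in 1 of 11 (adjusted p = 0.0529). In epidermis *gclm*, of glutathione synthesis (-3.12, adjusted p = 0.0177), and *il1b* (-2.20, adjusted p = 0.0470) fell. The *gclm* call ended once detected genes entered as a covariate (-2.67, adjusted p = 0.0928), and the *il1b* call ended in 11 of 14 fits without a single library.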

How the data were processed

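The authors deposited a table of TPM values, 1 column per library, with no pooling. Per the submitters' processing notes STAR, featureCounts and DESeq2 were used on the builds GRCz11 and danRer11; no source used here gives versions, annotation, strand setting or the counting of reads shared by paralogues. TPM keeps no depth, so no counting interval is given. The members and gene lists were chosen with earlier results of these data known. No 2 libraries held identical values.

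Those 13465 genes that reached 1 TPM in 5 or more libraries entered limma 3.58.1 in R 4.3.3 (lmFit, eBayes with trend) on log2(TPM + 1), all 27 libraries in 1 fit with 1 mean per group and 23 residual degrees of freedom, which assumes that groups vary alike. The procedure was run on simulated normal values with the same spread in every group, and differences were added only to well-expressed genes. That run does not bear on unequal spreads, on low genes or on what same-numbered libraries share. Permutation tests used scipy 1.17.1 and figures matplotlib 3.10.9. Named were all members, up to 4 genes with the smallest p per list and mutant comparison, and the 5 genes most like *jun*. The genes *june*, *fosl1b*, *fosl2l* and *mpeg1.1* were named after their values were seen. Alternatives were other pseudocounts (0.1, 10), filters, scalings, weights, subsets, a covariate for detected genes, a replicate block and leaving out each library. No sequences are shown, since none were among the tables used here.

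Replicate numbers occur in every group. Same-numbered libraries deviated from their group means with correlations of at most 0.078. Yet all 7 libraries correlated best with their own number between mutant and sibling epidermis, between mutant epidermis and mutant gill, and between sibling epidermis and mutant gill. The labels do not say that the numbers mark pairs or batches, so the main fit left them out. Counts with the number as a block are given below.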

Additional observations from a re-analysis of the deposited data

Results flagged for a closer look

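Of 48 sets of values (the 10 members and both family sums in each group), 10 had a library standing apart from the rest of its group by Dixon's test at the 95% level. For normally distributed values chance flags about 1 in 20 groups, and the sums share libraries with their members. The test was run on TPM without logarithms, and all 10 flagged libraries were the highest of their group. The count is therefore not read as an excess over chance. Among Jun values, *jun* was 9118 TPM in sibling gill 5, where the next highest sibling gill library had 4291 TPM, and the Jun sum there was 17336 TPM against 7513 TPM in the next. In mutant gill 4, *junba* was 5201 TPM (next 2774 TPM) and the Jun sum 22198 TPM (next 12264 TPM), and in mutant epidermis 2 *junba* was 2762 TPM (next 1465 TPM). For *atf3*, mutant epidermis 5 had 299 TPM (next 87.8 TPM) and mutant gill 1 had 555 TPM (next 251 TPM). For *fosl2*, mutant epidermis 2 had 416 TPM (next 203 TPM), and for *fosaa*, mutant gill 2 had 73.5 TPM (next 33.3 TPM) and sibling epidermis 6 had 10.8 TPM (next 3.54 TPM).

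The mutant effect on *fosab* differed between the tissues by the test of that difference, with a log2 value of -2.88 for gill minus epidermis (adjusted p = 0.00819 by limma).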

How the results depend on the processing

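In epidermis 5 to 7 members were called in the 12 alternative settings and 6 in each of the 14 fits without 1 library. Over all genes the epidermis count of 1726 became 1233 to 2442 in those settings and 1473 to 1736 in those fits. In gill the member count of 0 became 1 after quantile normalization and 3 after median centring. Between sibling tissues the count of 6 became 3 after median centring, reached 7 at most in the other settings and was 4 to 6 without single libraries. Between mutant tissues 0 became 1 after quantile normalization and was 0 to 1 without single libraries. The count of 1 for the difference of the mutant effects became 0 after median centring. The cause of these changes was not tested. With the replicate number as a block the counts were 6, 0, 4, 0 and 1. In 3 of 6 pairs of groups all 7 libraries correlated best with their own number. What same-numbered libraries share is not given by the labels and was not tested.

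Signs of values that did not pass turned for *fosl2* in epidermis (0.73, median centring); in gill for *fosb* (quantile -0.12, covariate -0.17, block -0.13, without the 3 libraries with the fewest genes -0.008, without single libraries -0.22 to 0.27), *fosl2* (-0.001, quantile), *jun* (0.058, quantile; 0.75, median centring; -0.27 to 0.21 without single libraries) and *atf3* (0.37, median centring); for *fosl2* between sibling tissues (quantile -0.046, median centring -0.33, block -0.12, single libraries -0.12 to 0.21); and between mutant tissues for *fosaa* (-0.99 to 0.077 without single libraries) and *jun* (-0.082, median centring).

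Over all genes the gill count of 836 became 1303 (median centring) or 552 (libraries of the contrast alone), and 520 without sibling gill 4. That of 129 between sibling tissues became 72 (stricter filter), 74 (median centring) or 245 (weights) and was 76 to 119 without single libraries. That of 569 between mutant tissues became 358 (no filter), 338 (median centring), 360 (weights), 119 (contrast alone) or 214 (covariate). The 8 for the difference became 1 to 26 in other settings and 2 to 26 without single libraries. The share of higher calls was 37.7%, 42.3% and 82.8% in gill as deposited, after quantile normalization and after median centring, 65.9%, 57.1% and 40.5% between sibling tissues, and 80.5%, 54.7% and 34.3% between mutant tissues. The fits of *socs3a* for the difference of the mutant effects, and of *spry2* and *map3k1* in epidermis, under these settings were added after seeing the data.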

Other observations

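Of 3 relatives of the members outside the 10, *june* was detected in all groups, while *fosl1b* and *fosl2l* were at 0 in most or all libraries. The Jun-like gene *june* averaged 62.7 ± 55.2 TPM in mutant epidermis, 46.9 ± 34.4 TPM in sibling epidermis, 41.5 ± 34.4 TPM in mutant gill and 63.6 ± 47.3 TPM in sibling gill, each with overlapping ranges. *fosl1b* was listed at 0 in all 27 libraries, and *fosl2l* reached 20.7 TPM in mutant gill 5 and 1.28 TPM in 1 sibling gill library and was listed at 0 in all epidermis libraries. These 3 genes were chosen after their values were seen.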
